A study of Mus musculus with 6 samples.

Results

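Transcripts of the carboxylesterase family were followed in mast cells from mouse lymph nodes. The genes are Ces2c, Ces2b, Ces2f, Ces2g, Ces2a, Ces2e, Ces1d and Ces1g, found by symbol as 8 of the 17890 genes of the expression table. They were chosen because of their levels in the very comparison described here, Ces2c foremost, so the values of these 8 genes are a description and carry no test. RefSeq annotates 20 mouse carboxylesterase genes, 19 of them protein-coding, and 10 were rows of the table. The other 2 rows, Ces1e and Ces1h, are given beside the members.

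Per the labels there were 2 groups of 3 libraries. One came from mast cells of lymph nodes that held tumour metastases (mLN), the other from mast cells of uninvolved nodes (uLN). No genotype, strain, tumour type, age or treatment is given in the sources used here, nor how the mast cells were isolated or whether animals were pooled. Each library held 17643916 to 17799420 estimated reads, and 15597 to 16182 genes had at least 1. The mast cell markers were abundant in both groups. All 10 were in the table, and their summed level was 35135 to 37781 CPM (reads scaled to library size with TMM factors) in mLN and 36980 to 38676 CPM in uLN. Single markers differed in both directions, with 3 called higher in mLN by edgeR's quasi-likelihood test (Mcpt4, Cma1 and Tpsb2, which encode granule proteases), 6 called lower and Gata2 not called. Kit, the stem cell factor receptor, was among the lower ones, at 3139 ± 46.6 CPM in mLN and 7756 ± 191 CPM in uLN (SD, n = 3 each). Nothing in the labels says that the replicates came from separate animals, so a p-value reflects no more than library-to-library spread, which can be technical.

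Carboxylesterases are serine hydrolases that cut ester, amide and thioester bonds in drugs, pyrethroids, retinyl esters and neutral lipids. A serine in a conserved active-site motif attacks the ester, and most family members carry a C-terminal retention signal that the KDEL receptors recognise, which keeps them in the lumen of the endoplasmic reticulum. They are best known from liver and intestine, where the Ces1 and Ces2 genes lie in tandem arrays that arose by duplication in rodents.

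The members lie on chromosome 8 in 2 arrays (GRCm38). The array of the Ces1 genes and Ces5a spans chr8:93020214-93535879. The array that runs from Ces2a to Ces4a spans chr8:104734003-105150109, with all Ces2 members on the plus strand. Ces2c occupies chr8:104847068-104854483 in 12 exons, next to Ces2b at chr8:104831572-104840093. To show how alike the copies are, 60 coding bases centred on the active-site serine codon are given for the 6 Ces2 members, from the GENCODE transcripts, 5′ to 3′. Capitals mark bases that differ from Ces2c.
Ces2c: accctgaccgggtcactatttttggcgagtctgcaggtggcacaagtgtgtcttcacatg
Ces2b: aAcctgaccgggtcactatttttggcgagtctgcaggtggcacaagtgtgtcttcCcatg
Ces2e: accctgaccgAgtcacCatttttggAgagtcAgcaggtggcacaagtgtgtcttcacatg
Ces2g: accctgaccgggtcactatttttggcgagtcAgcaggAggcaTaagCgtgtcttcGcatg
Ces2f: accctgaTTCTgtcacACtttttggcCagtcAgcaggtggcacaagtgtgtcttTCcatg
Ces2a: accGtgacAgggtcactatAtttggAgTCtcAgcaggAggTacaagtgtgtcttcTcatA
Ces2b differed from Ces2c at 2 of these 60 bases, Ces2e at 4, Ces2g at 5, Ces2f at 10 and Ces2a at 11. Over the whole coding sequence Ces2b and Ces2c were 92.1% identical, the closest pair among the members, with a longest identical run of 99 bases. Identity with Ces2c was 85.2% for Ces2g, 84.0% for Ces2e, 83.0% for Ces2a and 81.2% for Ces2f. The Ces1 members were further off, at 61.3% to 63.6% identity with the Ces2 members.

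**Figure D1:**
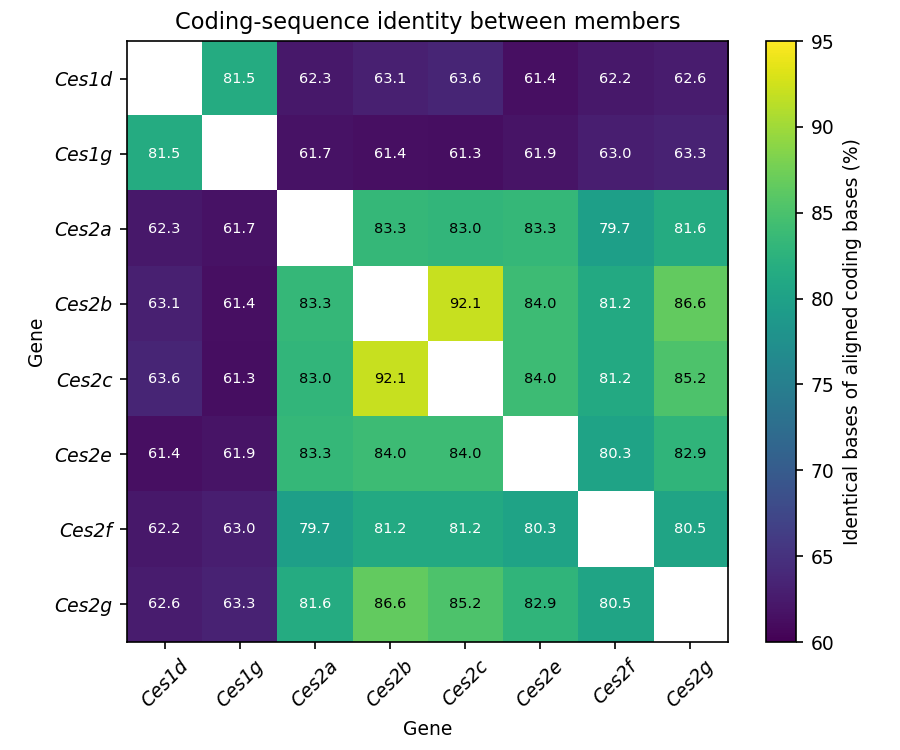
Identity of coding sequences between each pair of the 8 members, in percent of aligned bases (colour and printed number). Ces2b and Ces2c stand out at 92.1%, Ces2 pairs run from 79.7%, and pairs of a Ces1 with a Ces2 gene lie between 61.3% and 63.6%.

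Ces2c, an inducible esterase that hydrolyses triacylglycerol and diacylglycerol in mouse liver and intestine, was the member with the widest gap between the groups. It had 371, 449 and 432 reads in mLN replicates 1, 2 and 3, against 1, 0 and 0 reads in uLN replicates 1, 2 and 3. The groups were far apart, and the single uLN read stood in replicate 1. Its level was 20.3, 25.0 and 24.8 CPM in the mLN libraries, 23.4 ± 2.64 CPM (SD, n = 3), against 0.0191 ± 0.0331 CPM in uLN (SD, n = 3). In CPM, 3 reads amounted to 0.164 to 0.172 in a library, a floor that no uLN library reached. The read ratio of mLN over uLN was 1227 with a 95% interval of 220 to 48483, which rests on that 1 read. With uLN replicate 1 left out, uLN had no read and Ces2c was at least 137-fold higher in mLN than 3 reads per uLN library. With uLN replicate 2 or 3 left out the ratio was 813 or 820. Without 1 of the mLN libraries it was 1183 to 1308. Intervals and floors cover counting error only.

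The Ces2c reads were also set beside the rest of the table. Of the 9551 genes with at least 100 reads in each mLN library, Ces2c was the only 1 with at most 3 reads over the uLN libraries, and 0 genes met the reverse condition. This pair of limits was set after the Ces2c values were seen. That Ces2c met them follows from the choice, and the count does not measure how rare such a gap is. In these bulk libraries a change in the number of cells that carry a transcript and a change in the transcript per cell cannot be told apart.

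Ces2b, the nearest copy of Ces2c, ran the other way. Its reads were 487, 505 and 461 in mLN and 605, 605 and 649 in uLN, so that every mLN library was below every uLN library. Its level was 27.1 ± 0.868 CPM in mLN and 35.4 ± 1.68 CPM in uLN (SD, n = 3 each), a log2 fold change of -0.39 ± 0.06 (SE). The Ces2b level thus differed by -8.30 CPM where that of Ces2c differed by 23.3 CPM.

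Ces2f, another esterase of the same array, had 182, 196 and 192 reads in mLN and 200, 188 and 179 in uLN. These groups overlapped. The means were 10.6 ± 0.574 CPM in mLN and 10.8 ± 0.619 CPM in uLN (SD, n = 3 each), a log2 fold change of -0.02 ± 0.10 (SE) whose sign changed with the scaling.

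Ces2g, the member farthest downstream in the array, had 26.8, 11.4 and 18 reads in mLN and 6.01, 5.62 and 5.97 in uLN. The groups did not overlap, but the mLN libraries were spread over more than the whole distance from uLN to the lowest of them. Its level was 1.05 ± 0.420 CPM in mLN and 0.335 ± 0.0154 CPM in uLN (SD, n = 3 each). The log2 fold change was 1.59 ± 0.42 (SE), 1.24 without mLN replicate 1 and 1.85 without mLN replicate 2.

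These 4 genes passed the filter on low counts, Ces2c and Ces2g through their mLN reads alone. The groups did not overlap for Ces2c, Ces2b and Ces2g. Among the 12706 genes that passed, the groups did not overlap in 72.9%. Over all of them edgeR's quasi-likelihood test called 67.4%, 33.2% higher in mLN and 34.2% lower, which is the background for the gene lists. Since the members were selected on this comparison, no call is given for them and nothing is read from their count.

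The remaining 4 members were at or near the floor. Ces2a, a hepatic triacylglycerol hydrolase in mice, had 0, 1 and 0 reads in mLN and 0, 0 and 1 in uLN. Ces2e, known as a pyrethroid hydrolase in mice, had 1.02, 0 and 0 reads in mLN and none in uLN. Ces1g, a hepatic lipid hydrolase in mice, had 1, 1 and 2 reads in mLN and 0, 1 and 1 in uLN. No difference was detectable for these genes at this depth.

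Ces1d encodes the triacylglycerol hydrolase of mouse liver and adipose tissue. It had 17, 3 and 0 reads in mLN and 0, 0 and 2 in uLN, so the mLN reads stood almost wholly in replicate 1 and the groups overlapped. The read ratio of mLN over uLN was 9.80 (95% interval 2.38 to 86.4), and 2.23 (0.255 to 26.7) without mLN replicate 1. Both intervals pool reads over libraries and cover counting error only, not the spread between libraries. The rows that are not members were low too. Ces1e had 4, 1 and 0 reads in mLN and 1, 0 and 0 in uLN, and Ces1h had 1, 0 and 0 reads in mLN and none in uLN.

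**Figure D2:**
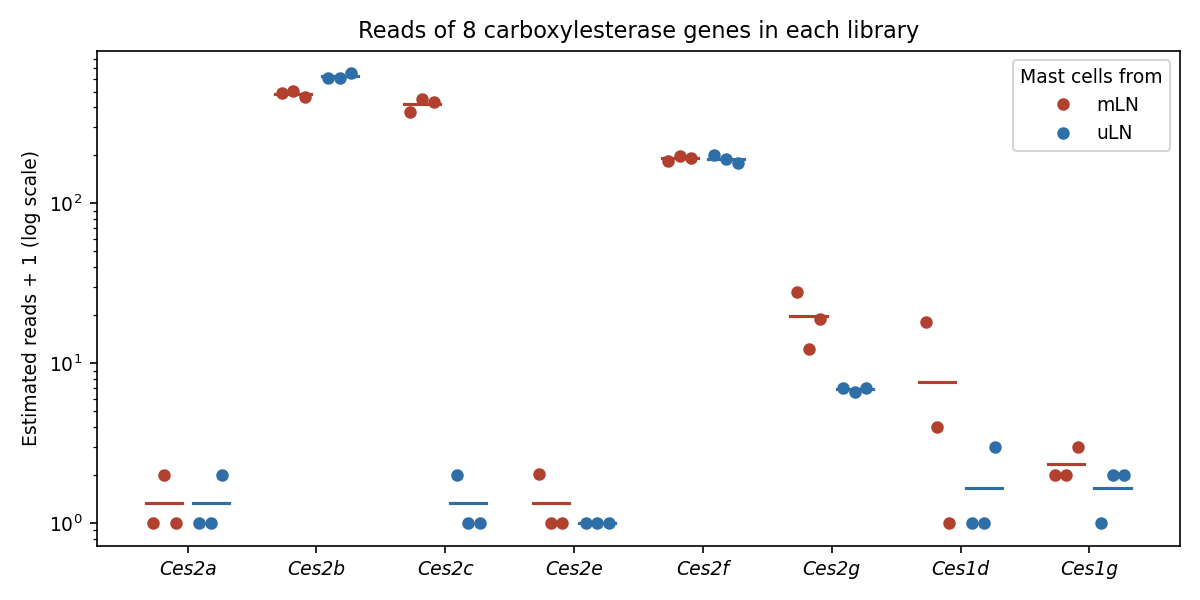
Estimated reads + 1 (log scale) of the 8 members in each library, mLN left of uLN within each gene; points are libraries and bars are means. Ces2c has 371 to 449 reads in mLN and at most 1 in uLN, Ces2b is slightly lower in mLN, Ces2f overlaps, and Ces2a, Ces2e and Ces1g stay near 0.

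Levels of different genes were compared per kilobase of transcript. In mLN the order was Ces2c at 11.9 ± 1.34, Ces2b at 7.95 ± 0.255, Ces2f at 5.82 ± 0.315 and Ces2g at 0.366 ± 0.147 CPM per kb (SD, n = 3). In uLN it was Ces2b at 10.4 ± 0.494, Ces2f at 5.92 ± 0.339 and Ces2g at 0.117 ± 0.00537 CPM per kb (SD, n = 3), with Ces2c at 0.0097 ± 0.0168. By this measure Ces2c stood first among the members in mLN and among the genes at the floor in uLN. The first place rests on the transcript lengths used, 3408 bases for Ces2b and 1970 for Ces2c. In CPM, without length, Ces2b was above Ces2c in mLN (27.1 ± 0.868 against 23.4 ± 2.64, SD, n = 3 each). Below Ces2g in mLN, Ces1d at 0.183 ± 0.248 CPM per kb did not differ from it beyond the spread, and the other members were at or near the floor.

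The Ces2 array was described next as a whole, since a sum over its 6 members does not depend on how reads were divided among them. It held 1068, 1162 and 1103 reads in mLN and 813, 799 and 835 in uLN. That is 62.1 ± 3.24 CPM in mLN and 46.6 ± 1.44 CPM in uLN (SD, n = 3 each), a ratio of 1.33, with every mLN library above every uLN library. Ces2b and Ces2c alone, the closest copies, summed to 50.4 ± 3.11 CPM in mLN and 35.4 ± 1.67 CPM in uLN, a ratio of 1.42. The 5 members other than Ces2c summed to 38.8 ± 0.771 CPM in mLN and 46.5 ± 1.44 CPM in uLN, a ratio of 0.833.

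Within the array the make-up differed more than the total. Ces2c took 34.7%, 38.6% and 39.2% of Ces2 reads in mLN and 0.123%, 0% and 0% in uLN. Ces2b took 45.6%, 43.5% and 41.8% in mLN and 74.5%, 75.7% and 77.8% in uLN. Ces2f took 17.0%, 16.8% and 17.4% in mLN and 24.6%, 23.6% and 21.4% in uLN. Per length, Ces2c made up 42.7%, 46.7% and 47.0% of the Ces2 level in mLN.

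**Figure D3:**
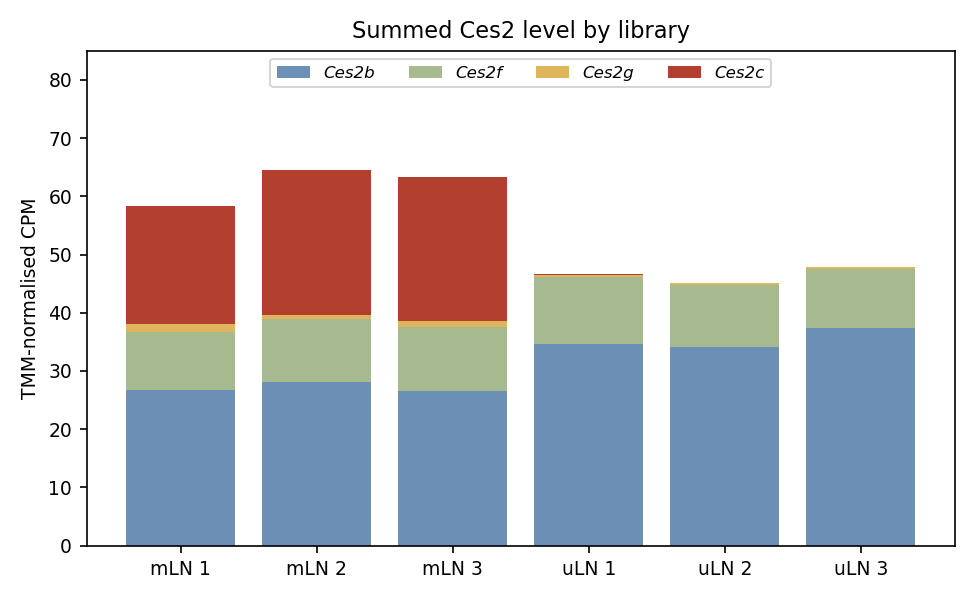
TMM-normalised CPM of Ces2b, Ces2f, Ces2g and Ces2c stacked for each library (Ces2a and Ces2e, near 0, are not drawn). The mLN libraries are taller by their Ces2c layer, which is absent at this scale from uLN, while the Ces2b layer is lower in mLN.

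**Figure D4:**
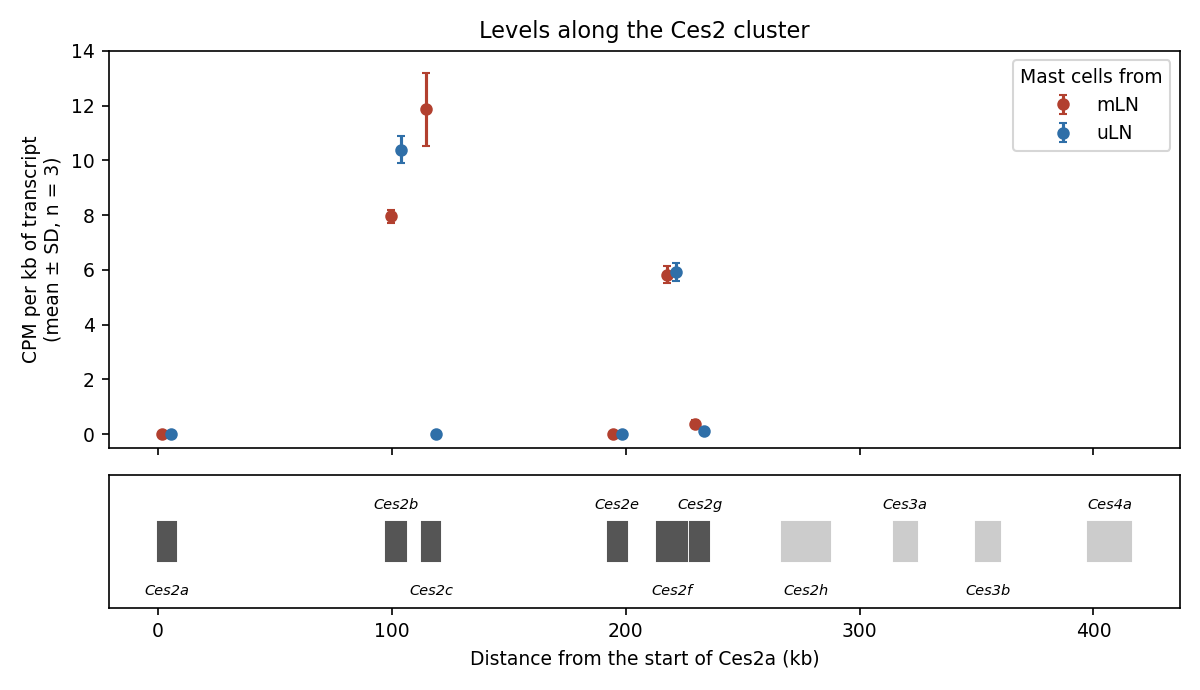
Top, mean level of each Ces2 member per kb of transcript (± SD, n = 3) at its distance from the start of Ces2a, mLN left of uLN. Bottom, the genes of the array, members dark and the carboxylesterase genes not analysed here light. Ces2b and Ces2c lie side by side and differ in opposite directions, and Ces2a and Ces2e, on either side of them, are near 0 in both groups.

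Because close copies can share reads, the counts themselves were inspected. The deposited values are estimates that need not be whole, and counting tools give fractions where they divide a read between genes or transcripts. Ces2c was whole in 5 of 6 libraries, but its uLN values of 1, 0 and 0 reads say little about sharing. In mLN it was whole in replicates 2 and 3, with a distance of 0.26 from a whole number in replicate 1. Ces2b, Ces2f and Ces2g were whole in 0 of 6 libraries, with largest distances of 0.48, 0.40 and 0.38. Ces1d, Ces1g and Ces2a were whole in 6 of 6, and Ces2e in 5 of 6, with at most 17 reads in any library.

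Identical stretches were then counted between the GENCODE transcripts. Of the 1921 windows of 50 bases in Ces2c, 811 (42.2%) occur in another gene, the highest share among the members. Members account for only 128 of them (6.66%), Ces2b for 99. The pseudogene Ces2d-ps accounts for 734, Gm8798 for 363 and Gm6831 for 130. With windows of 100 bases, 16.0% of Ces2c was still shared, 294 windows of it with Ces2d-ps. In all, 777 of the 1921 windows are shared with genes that have no count of their own in this comparison. Ces2d-ps, Gm8798 and Gm6831 are among them and were not analysed here, so the Ces2c count may hold reads of theirs, which was not tested. The shares of 50-base windows found elsewhere were 22.2% for Ces2a, 9.79% for Ces2b, 5.41% for Ces2f, 4.02% for Ces2g and 3.36% for Ces2e, and with 100 bases Ces2b fell to 0.09% and Ces2f, Ces2g and Ces2e to 0%. Whether counting used strand is not given in the sources used here, so reads of genes overlapping a member on either strand cannot be separated.

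Sequence before the transcription start is printed for Ces2c and Ces2g, both higher in mLN, and for Ces2f, whose groups overlapped. RefSeq windows (GRCm38.p6) matched 6 of the 8 members. The 250 bases before the start lie at chr8:104846818-104847067 for Ces2c, chr8:104961468-104961717 for Ces2g and chr8:104947106-104947355 for Ces2f, all on the plus strand and 5′ to 3′. Capitals mark matches on either strand to 7 motifs, spelled out after the sequences, and a match is a description and not a site.
Ces2c: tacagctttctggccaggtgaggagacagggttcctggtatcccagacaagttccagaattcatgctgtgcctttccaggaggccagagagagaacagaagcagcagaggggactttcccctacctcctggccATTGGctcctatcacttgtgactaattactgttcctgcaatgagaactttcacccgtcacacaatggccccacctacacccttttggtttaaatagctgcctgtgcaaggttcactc
Ces2g: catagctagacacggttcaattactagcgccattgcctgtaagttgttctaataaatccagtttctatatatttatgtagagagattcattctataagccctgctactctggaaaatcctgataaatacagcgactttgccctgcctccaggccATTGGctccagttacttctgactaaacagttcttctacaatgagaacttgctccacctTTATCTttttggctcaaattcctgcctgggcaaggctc
Ces2f: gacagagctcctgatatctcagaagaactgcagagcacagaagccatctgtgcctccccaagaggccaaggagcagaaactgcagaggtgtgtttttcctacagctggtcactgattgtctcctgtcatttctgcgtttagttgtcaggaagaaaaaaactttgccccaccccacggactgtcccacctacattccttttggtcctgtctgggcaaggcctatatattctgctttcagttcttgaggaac
The search ran from 250 bases before to 50 after the start. The core promoter motif TATAAA occurs in 13.6% of the 32851 promoter windows, the motif CCAAT in 37.4% and the Sp1-type motif GGGCGG in 35.7%. The GATA factor motif AGATAA occurs in 11.2% of windows, the hypoxia response core ACGTG in 19.6%, the AP-1 motif TGANTCA in 7.8% and the nuclear receptor motif AGGTCA in 16.3%. Ces2c held 1 match, CCAAT at -117. Ces2g held CCAAT at -96, AGATAA at -38 and ACGTG at 25, and Ces2f held none. The E-box CANNTG, not capitalised, occurs in 72.3% of windows and was found in both Ces2c and Ces2f.

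Markers of other cell types known for carboxylesterases were read in the same libraries. Of 10 hepatocyte markers, 5 were in the table. They summed to 5.93, 1.07 and 1.48 CPM in mLN replicates 1, 2 and 3, and 0.547 to 1.08 CPM in uLN. Of these, Apoa1 and Serpina1a were at 3 reads or fewer in every library. Of 10 enterocyte markers, 6 were in the table, at 0.556 to 1.10 CPM in mLN and 0.345 to 0.734 CPM in uLN, with Fabp1, Alpi and Cdh17 at 3 reads or fewer. Of 8 adipocyte markers, 5 were in the table, at 58.5 to 61.5 CPM in mLN and 51.8 to 55.7 CPM in uLN. Adipoq and Plin1, which define adipocytes, were at 3 reads or fewer in every library, and Lipe, the hormone-sensitive lipase gene, held 1003 to 1107 reads in mLN and 859 to 926 in uLN. Only 2 adipocyte markers were tested, 1 called higher and 1 lower in mLN, around a median log2 fold change of -0.72. The part of these cell types in the Ces2c level was not tested.

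Epithelial and fibroblast transcripts differed between the mLN libraries. The 8 epithelial markers summed to 158, 16.2 and 35 CPM in mLN replicates 1, 2 and 3 and to 8.04 to 17.3 CPM in uLN. The 7 fibroblast markers summed to 113, 13.0 and 26.6 CPM in mLN and 5.17 to 14.1 CPM in uLN. In mLN replicate 1, where both sums were highest, Ces2c stood at 20.3 CPM, against 25.0 and 24.8 CPM in mLN replicates 2 and 3, while Ces2g and Ces1d were highest there. The hepatocyte marker sum was also highest in that library. The part of epithelial, fibroblast or hepatocyte RNA in the levels of these 3 genes was not tested. The 11 macrophage markers summed to 228 to 254 CPM in mLN and 283 to 397 CPM in uLN. Single macrophage markers differed in both directions, with 3 of 10 tested called higher in mLN and 7 lower (100% called, all tested genes 67.4%). The 8 dendritic cell markers summed to 45.9 to 52.7 CPM in mLN and 11 to 12.8 CPM in uLN, and their part in the Ces2c level was not tested.

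The genes beside the arrays were examined next, within 200 kb. Around the Ces2 array, 8 of 20 tested neighbours were higher in mLN, 4 lower and 8 uncalled (all tested genes: 33.2% higher, 34.2% lower). Their median log2 fold change was 0.11, and that of all tested genes -0.01. None came near Ces2c, the range being -0.56 to 1.35. The lower count was 2 without mLN replicate 1 or without uLN replicate 3, and the median was 0.20 without mLN replicate 3 and 0.17 without uLN replicate 3. Upstream, Ciao2b, of the cytosolic iron-sulphur assembly machinery, was not called (log2 fold change 0.14, edgeR quasi-likelihood, Benjamini-Hochberg adjusted p = 0.131). Rrad, a Ras-related GTPase, averaged 14.5 ± 1.05 CPM in mLN and 11.6 ± 1.74 CPM in uLN (SD, n = 3 each; edgeR adjusted p = 0.0278), a call lost without mLN replicate 2, uLN replicate 1 or uLN replicate 2 (adjusted p = 0.109, 0.117 and 0.0517). Cdh16 was too low to test. Downstream, Cbfb, the partner of RUNX factors, averaged 105 ± 0.933 CPM in mLN and 115 ± 1.60 CPM in uLN (SD, n = 3 each; edgeR adjusted p = 0.0226), a call lost under 5 of 13 alternatives. D230025D16Rik was higher in mLN (log2 fold change 0.38 ± 0.06, SE; edgeR adjusted p = 0.000325), and B3gnt9 was not called (-0.14, edgeR adjusted p = 0.478).

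Beside the Ces1 array, 4 genes were measured and 3 tested. Lpcat2, which makes phosphatidylcholine and platelet-activating factor, averaged 170 ± 0.506 CPM in mLN and 397 ± 17.8 CPM in uLN (SD, n = 3 each), a log2 fold change of -1.22 ± 0.05 (SE, edgeR adjusted p = 1.37e-08). Capns2, a calpain small subunit, was lower as well (-1.11 ± 0.26, SE; edgeR adjusted p = 0.00349). It lies within the span of Lpcat2 and had only 15 to 43 reads a library. Its count may hold Lpcat2 reads, which was not tested. The other tested gene, Mmp2, was not called (0.36, edgeR adjusted p = 0.457). Slc6a2 was too low to test.

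Enzymes that work on the same substrates were called in both directions, as were all tested genes (33.2% higher in mLN, 34.2% lower). The lists were chosen by function with earlier results known. Of 12 tested neutral lipid hydrolases, 4 were higher in mLN, 4 lower and 4 uncalled (66.7% called, all tested genes 67.4%). Their median log2 fold change was -0.14. Lipa, the lysosomal acid lipase, was 228 ± 17.9 CPM in mLN and 110 ± 2.90 CPM in uLN (SD, n = 3 each), a log2 fold change of 1.05 ± 0.06 (SE, edgeR adjusted p = 1.65e-07). Abhd12, a lysophospholipase, was lower (-0.40) and so was Abhd5, the activator of adipose triglyceride lipase (-0.27), and Ddhd2, a triacylglycerol hydrolase best known from brain, was higher (0.26).

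Of 13 tested genes of triacylglycerol synthesis and lipid droplets, 5 were higher in mLN and 4 lower (69.2% called, all tested genes 67.4%). The median was 0.14, but 0.07 without mLN replicate 1, 0.09 without uLN replicate 3 and 0.07 with no filter. Agpat2, which makes phosphatidic acid, was 16.5 ± 2.94 CPM in mLN and 44.0 ± 1.64 CPM in uLN (SD, n = 3 each), a log2 fold change of -1.41 ± 0.11 (SE, edgeR adjusted p = 1.37e-06). Bscl2, which encodes the droplet protein seipin, was lower, at 35.1 ± 4.90 CPM in mLN and 70.2 ± 1.92 CPM in uLN (SD, n = 3 each). The droplet coat protein gene Plin2 was lower too (-0.65), whereas Plin3 was higher (0.85).

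Of 17 tested other esterases and thioesterases, 10 were higher in mLN and 6 lower (94.1% called, all tested genes 67.4%). Their median of 0.34 was -0.05 over the 22 genes left by no filter. Pon2, an intracellular lactonase, was 26.7 ± 0.518 CPM in mLN and 59.3 ± 1.52 CPM in uLN (SD, n = 3 each; log2 fold change -1.15, edgeR adjusted p = 5.46e-08). The depalmitoylating thioesterases Lypla1 (-0.91) and Lypla2 (-0.76) were lower too, and the sialic acid esterase Siae was higher (0.91).

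Of 30 tested genes of xenobiotic phase I and II, 13 were higher in mLN and 10 lower (76.7% called, all tested genes 67.4%). The median was 0.18, but 0.09 without mLN replicate 1 and 0.03 with no filter. Nqo1, a quinone reductase, was 31.3 ± 4.15 CPM in mLN and 222 ± 10.8 CPM in uLN (SD, n = 3 each), a log2 fold change of -2.82 ± 0.08 (SE, edgeR adjusted p = 3.71e-09). Gstt1, a glutathione transferase, had 138, 156 and 126 reads in mLN and 10, 6 and 9 in uLN (log2 fold change 4.02). The cytochrome P450 gene Cyp2d22 was higher (1.96) and the fatty aldehyde dehydrogenase gene Aldh3a2 lower (-0.98).

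Factors known to act on carboxylesterase genes in liver were mixed. Of 14 tested, 5 were higher in mLN, 6 lower and 3 not called (78.6% called, all tested genes 67.4%). The lower count was 3 without uLN replicate 2. The median was -0.06, but -0.01 without mLN replicate 3, -0.04 with library totals alone and -0.03 with no filter. Nr1i2 and Nr1i3, the xenobiotic receptors PXR and CAR, and Hnf4a and Ppara did not pass the filter on low counts. The receptor partner Rxra was 36.6 ± 5.96 CPM in mLN and 88.2 ± 1.39 CPM in uLN (SD, n = 3 each; log2 fold change -1.27, edgeR adjusted p = 1.22e-06). Its paralogue Rxrb (0.63), Ppard (0.63) and Arnt (0.54) were higher.

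The endoplasmic reticulum list had the highest median of the 6 lists. Of 13 tested KDEL receptors and lumen proteins, 10 were higher in mLN and 3 lower (100% called, all tested genes 67.4%). Their median log2 fold change was 0.63, against -0.01 over all tested genes. The chaperone Hspa5 was 374 ± 36.5 CPM in mLN and 169 ± 2.94 CPM in uLN (SD, n = 3 each), a log2 fold change of 1.15 ± 0.07 (SE, edgeR adjusted p = 1.70e-07). Pdia6 (0.91), Hsp90b1 (0.86), Calr (0.81) and the retrieval receptor Kdelr2 (0.71) were higher, and Sdf2l1 (-1.11), Dnajb11 (-0.60) and Creld2 (-0.34) lower.

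**Figure D5:**
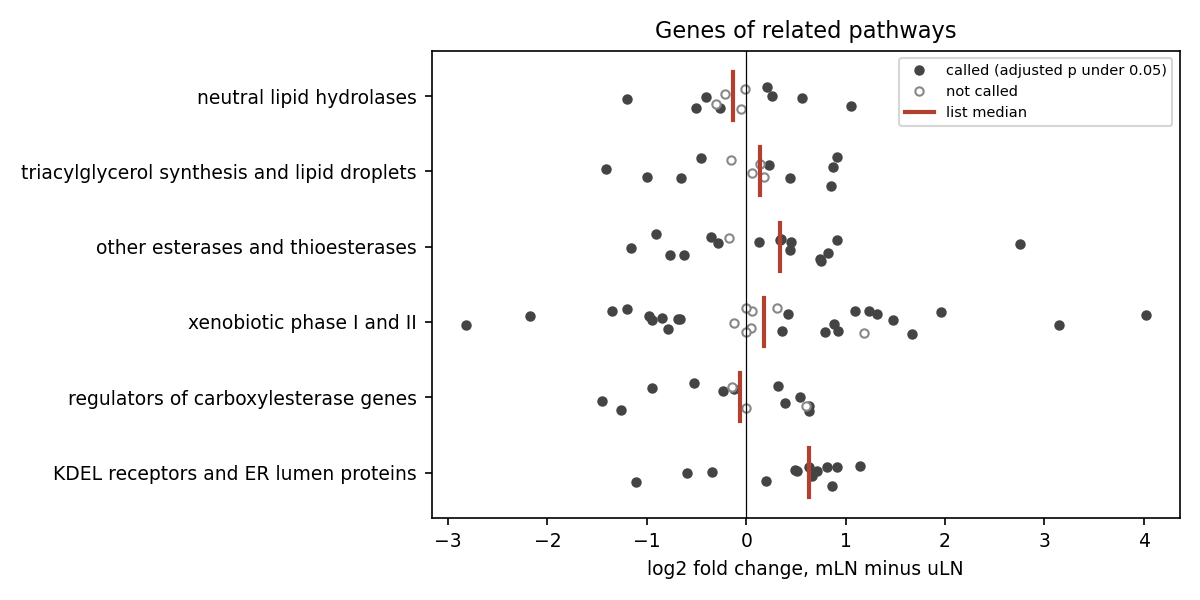
Log2 fold change of mLN minus uLN (x axis) for the tested genes of 6 lists; filled points are called at an adjusted p under 0.05 by edgeR, open points are not, and red bars are list medians. Medians lie between -0.14 and 0.63, the highest being that of the KDEL receptors and lumen proteins.

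Predicted gene models, clone names, unnamed genes and named pseudogenes were left out of a search for profiles near that of Ces2c. Among the other tested genes, the nearest were sought by the root mean square difference of log2(CPM + 1) over the 6 libraries. They were Cyp26a1 (0.322), Prtn3 (0.538), Pou2f2 (0.562), Ccl5 (0.562) and Mpp2 (0.661). Cyp26a1, which clears retinoic acid, had 366, 405 and 305 reads in mLN and 9, 3 and 3 in uLN. Prtn3, a granule protease of myeloid cells, had 243, 263 and 246 reads in mLN and 6, 5 and 2 in uLN. Every one of the 5 was low in all uLN libraries and high in all mLN libraries, which follows from choosing them by nearness to Ces2c. None was as near to 0 in uLN as Ces2c.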

How the data were processed

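Per the labels, RNA was extracted with a Qiagen kit and made into BGI DNBSEQ mRNA libraries. The submitters' processing notes name GRCm38 and the tools TopHat, FastQC and cutadapt, unversioned. For the counting tool and its strand setting, nothing is given in the sources used here. As deposited by the authors, the table holds estimated counts per gene with no scaling stated, of which 32.2% to 32.8% were not whole. They were rounded for tests. Of 17891 rows, 1 named no gene (0.0% of reads) and was left out, 26 symbols turned into dates were restored by gene ID, and 17764 genes matched RefSeq.

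The groups mLN and uLN were compared by the quasi-likelihood test of edgeR 4.0.16 (R 4.3.3) over the 12706 genes its default filter kept, after TMM scaling. P-values were adjusted by Benjamini-Hochberg with calls made under 0.05. The test was run first on simulated data. Intervals of read ratios are exact conditional binomial intervals at 95%. Identity was aligned with Biopython 1.88. Transcripts were from GENCODE.

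Members and lists were chosen with earlier results of these data known. Named genes were the members, other carboxylesterase rows, up to 4 called genes a list by adjusted p, 3 neighbours a side, the 5 nearest profiles, and Kit, Fcer1a and Cpa3. Other genes were chosen after their values were seen. Fcer1a and Cpa3 had log2 fold changes of -0.59 and -0.43. Alternatives were other scalings, no filter, truncated counts, each library left out, a replicate block and DESeq2 1.42.0. Same-numbered mLN and uLN libraries did not deviate together (correlations 0.036, -0.134 and 0.009). The numbers were therefore not taken as pairs, which 3 libraries a group cannot settle.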

Additional observations from a re-analysis of the deposited data

How the results depend on the processing

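Over 13 alternatives the Ces2b log2 fold change ran from -0.42 to -0.35, that of Ces2g from 1.24 to 1.85 and that of Ces2f from -0.06 to 0.02. Over 12 of them, since the replicate block gives no such value, the Ces2c level in mLN ran from 22.5 to 24.8 CPM and the summed Ces2 ratio from 1.31 to 1.38. With a replicate block, 4122 genes were higher and 4263 lower, against 4219 and 4347 without it, and Ces2b, Ces2f and Ces2g stood at -0.38, -0.02 and 1.55 log2. Whether the numbers pair samples is not given in the labels. DESeq2 called 4028 higher and 3962 lower, and with each library left out in turn the counts ran from 3843 to 4403 higher and from 4017 to 4492 lower. Of 507 pairs of a named gene outside the members and an alternative, 498 kept direction and side of the threshold, 8 lost the call and 1 reversed. The 8 were Rrad and Cbfb, given above. The reversal was B3gnt9, whose log2 fold change ran from -0.23 to 0.0021 with a library left out, the top value without mLN replicate 3, and the cause was not tested. Depth limits Ces2a, Ces2e, Ces1d and Ces1g, which had at most 17 reads in any library.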
